A study of Rattus norvegicus with 60 samples.

Results

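Multi-walled carbon nanotubes (MWCNT) are rolled sheets of carbon that lodge in the small airways and alveoli when inhaled, and the lowest of 5 inhaled doses was examined here in rat lung. The comparison held 11 of the 60 lung RNA-seq libraries of the study. These were 5 rats that breathed MWCNT to a cumulative dose of 11.25 mg/m3 and 6 rats that breathed filtered air over the same period. A sixth exposed rat of this dose (replicate 2) carries the submitters' outlier label, and it was left out of the tests and described on its own. All rats were male Fischer rats (F344/DuCrl) aged about 3 months and housed 3 to a cage. Exposure was of the whole body for 6 hours a day on 3 days, and a piece of lung was taken 1 day after the last exposure. The sample labels round the dose to 11 mg/m3, while the study's design text gives 11.25 mg/m3. The doses of 22.5, 45, 90 and 180 mg/m3 each had air rats of their own, so no control rat is shared between doses. Each dose and its air rats form one exposure run, here called a set, and dose and set cannot be told apart. Treatment and whatever the rats of one treatment shared beyond it, such as cages, cannot be told apart either.

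Poorly degradable fibres in the alveoli are taken up by macrophages and injure the epithelium, which draws in neutrophils and monocytes through chemokines and raises acute-phase and antimicrobial proteins. The airways clear particles on a carpet of mucus moved by multiciliated cells. New multiciliated cells form when multicilin (Mcidas) and its partners switch on genes for mass production of centrioles, including cyclin O (Ccno). Acidic mammalian chitinase (Chia) and its enzymatically inactive relative Chi3l1 are secreted into the airways and are known from allergic and parasite-driven lung inflammation in mice.

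At 11.25 mg/m3, 4 genes passed the test between exposed and air rats. All 4 were higher in exposed rats: Ccno, Chia, Foxn4 and LOC100911034, a locus without a gene name. These are 0.0250% of the 15995 genes tested by edgeR's quasi-likelihood test at a Benjamini-Hochberg adjusted p under 0.05. No gene was lower by that test or by DESeq2, and limma's voom called 1 gene lower, Calcrl. At an unadjusted p under 0.05, 668 genes passed (4.18%), 390 of them higher (2.44%) and 278 lower (1.74%). All exposed rats lay above all air rats for 71 genes (0.444%) and below them for 41 genes (0.256%). By comparison, 6.80% of the same genes were called at 22.5 mg/m3, 5.41% at 45 mg/m3, 11.1% at 90 mg/m3 and 22.9% at 180 mg/m3. Called higher were 5.18%, 3.32%, 6.82% and 12.0% at these 4 doses, and called lower were 1.62%, 2.09%, 4.28% and 10.9%.

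The libraries of this set were close replicates. Their depth was 9055781 to 14918867 counted reads in exposed rats and 9494550 to 12197637 in air rats. The biological coefficient of variation, the between-rat variation left after counting noise, was 0.0763 among exposed rats and 0.0780 among air rats. At 22.5 mg/m3 the corresponding values were 0.159 in exposed rats and 0.156 in air rats. The median standard error of a log2 fold change at 11.25 mg/m3 was 0.0995, and for 14881 genes (93.0%) the 95% confidence interval left out a 2-fold change in either direction. The 10 lung markers, among them surfactant proteins and Scgb1a1, were all measured and summed to between 31593 and 33415 counts per 1000000 (CPM) in exposed rats and between 29931 and 35571 CPM in air rats. Because whole lung pieces were sequenced, fewer cells of a type and less RNA per cell cannot be told apart in any value given here.

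Ccno encodes cyclin O, an atypical cyclin that multiciliated cells need to amplify their centrioles, and it had the smallest p of all genes. Its neighbour on the chromosome in GRCr8 is Mcidas, which encodes multicilin, the switch of the multiciliated cell fate. Foxn4, a forkhead factor known in frog embryos to act with multicilin, and Chia were the other called genes with a known product. Their promoters are printed because 2 of them lie side by side and belong to one programme. They run 5′ to 3′ from 250 bases before to 50 bases after the annotated start in RefSeq's annotation of the rat assembly GRCr8. All 4 genes lie on the + strand.
Ccno, chr2:46363824-46364123: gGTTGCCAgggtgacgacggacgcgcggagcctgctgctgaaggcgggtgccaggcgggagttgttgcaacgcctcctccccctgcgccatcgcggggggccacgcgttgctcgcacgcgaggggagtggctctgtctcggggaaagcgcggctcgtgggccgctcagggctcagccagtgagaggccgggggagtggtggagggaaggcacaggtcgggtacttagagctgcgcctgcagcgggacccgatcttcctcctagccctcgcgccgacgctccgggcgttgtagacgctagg
Mcidas, chr2:46369767-46370066: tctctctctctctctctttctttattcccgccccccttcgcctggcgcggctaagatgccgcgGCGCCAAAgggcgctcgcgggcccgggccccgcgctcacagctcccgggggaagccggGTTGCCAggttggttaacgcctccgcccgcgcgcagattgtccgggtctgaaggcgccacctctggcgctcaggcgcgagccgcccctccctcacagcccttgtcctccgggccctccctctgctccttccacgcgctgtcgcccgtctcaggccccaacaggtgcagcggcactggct
Foxn4, chr12:48000007-48000306: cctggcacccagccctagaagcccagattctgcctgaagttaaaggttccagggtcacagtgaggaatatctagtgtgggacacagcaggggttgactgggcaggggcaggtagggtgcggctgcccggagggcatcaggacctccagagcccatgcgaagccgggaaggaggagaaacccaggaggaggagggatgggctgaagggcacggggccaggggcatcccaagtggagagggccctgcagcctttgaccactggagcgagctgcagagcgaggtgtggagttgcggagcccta
Chia, chr2:196302437-196302736: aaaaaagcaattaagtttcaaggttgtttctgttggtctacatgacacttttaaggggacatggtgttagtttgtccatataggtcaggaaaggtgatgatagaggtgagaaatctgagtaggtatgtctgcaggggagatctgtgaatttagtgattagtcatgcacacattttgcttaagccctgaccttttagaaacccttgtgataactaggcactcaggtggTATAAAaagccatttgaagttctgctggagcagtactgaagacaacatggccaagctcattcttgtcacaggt
Capitals mark exact matches to motifs that were searched on both strands and chosen after the sequences had been read. GTTGCCA, the core of the X-box motif to which RFX factors bind, occurs at position -249 of Ccno and at position -129 of Mcidas, counted from the annotated start. Of 33469 rat promoters of this length, 4.56% hold it. The E2F motif TTTGGCGC occurs on the minus strand at position -187 of Mcidas, and 0.493% of promoters hold it. Chia has a TATA box, TATAAA, at position -23, which 14.2% of promoters hold. The other E2F motif searched, TTTCCCGC (0.974% of promoters), was not found in any of these windows, and Foxn4 held none of the motifs named here. The Ccno and Mcidas windows were both 70.7% G and C, Foxn4 63.3% and Chia 41%, against a median of 51.7% over all promoters. These matches describe the letters and not binding.

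Ccno stood at 5.57, 4.05, 5.0, 4.02 and 5.29 CPM in the 5 exposed rats, against a lowest, median and highest of 1.27, 1.70 and 2.1 CPM in the 6 air rats. Every exposed rat was above every air rat, and the lowest exposed rat was well clear of the highest air rat. The log2 fold change was 1.52 ± 0.16 (SE, 95% interval 1.19 to 1.85), with an adjusted p of 3.6e-08 by edgeR. These levels rested on 36 to 83 reads in an exposed library and 15 to 21 in an air library. The call held when any one of the 11 rats was left out (log2 fold change 1.44 to 1.58). The rat with the outlier label, which entered neither the fit nor the call, had 5.63 CPM of Ccno, above every other rat of the set.

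The size of the Ccno difference was not that of the higher doses. Its log2 fold change was 3.67 at 22.5, 3.37 at 45, 3.53 at 90 and 3.17 at 180 mg/m3, so the 4 higher doses lay close together and 11.25 mg/m3 lay below them. The effect at 11.25 minus the effect at 22.5 mg/m3 was -2.15 on the log2 scale (adjusted p 2.4e-08), and minus the effect at 180 mg/m3 it was -1.65 (adjusted p 9.3e-07, both by edgeR's test of the difference).

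Foxn4 stood at 1.88, 1.69, 0.673, 1.34 and 1.30 CPM in exposed rats, against 0.202, 0.392 and 0.526 CPM (lowest, median, highest) in air rats. The groups did not overlap, although replicate 4 of the exposed rats came close to the highest air rat. The log2 fold change was 1.79 ± 0.35 (95% interval 1.09 to 2.49), with an adjusted p of 0.021 by edgeR. The counts were low, 7 to 28 reads in an exposed library and 2 to 6 in an air library. The call was lost in 7 of the 11 fits that left out 1 rat, namely without air replicates 1, 2, 3 or 5 and without exposed replicates 1, 3 or 5, where the log2 fold change stayed between 1.62 and 1.8 and the adjusted p reached 0.19. The Foxn4 log2 fold change was larger at the higher doses, 4.21 at 22.5 and 3.42 at 180 mg/m3, and the differences of -2.42 (adjusted p 0.011) and -1.63 (adjusted p 0.030) passed edgeR's test. The rat with the outlier label had 0.606 CPM, just above the highest air rat.

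Mcidas did not pass the test at 11.25 mg/m3. It stood at 0.873, 0.899, 1.44, 0.893 and 0.836 CPM in exposed rats, against 0.101, 0.329 and 0.593 CPM (lowest, median, highest) in air rats, with no overlap. The log2 fold change was 1.48 ± 0.35 (95% interval 0.78 to 2.17, adjusted p 0.23 by edgeR), on 8 to 15 reads in an exposed library and 1 to 7 in an air library. With limma's voom test it passed, at an adjusted p of 0.045. The rat with the outlier label had 1.47 CPM of Mcidas. The effect minus that at 22.5 mg/m3 was -0.94 (95% interval -1.90 to 0.02, adjusted p 0.50 by edgeR), which did not pass.

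**Figure D1:**
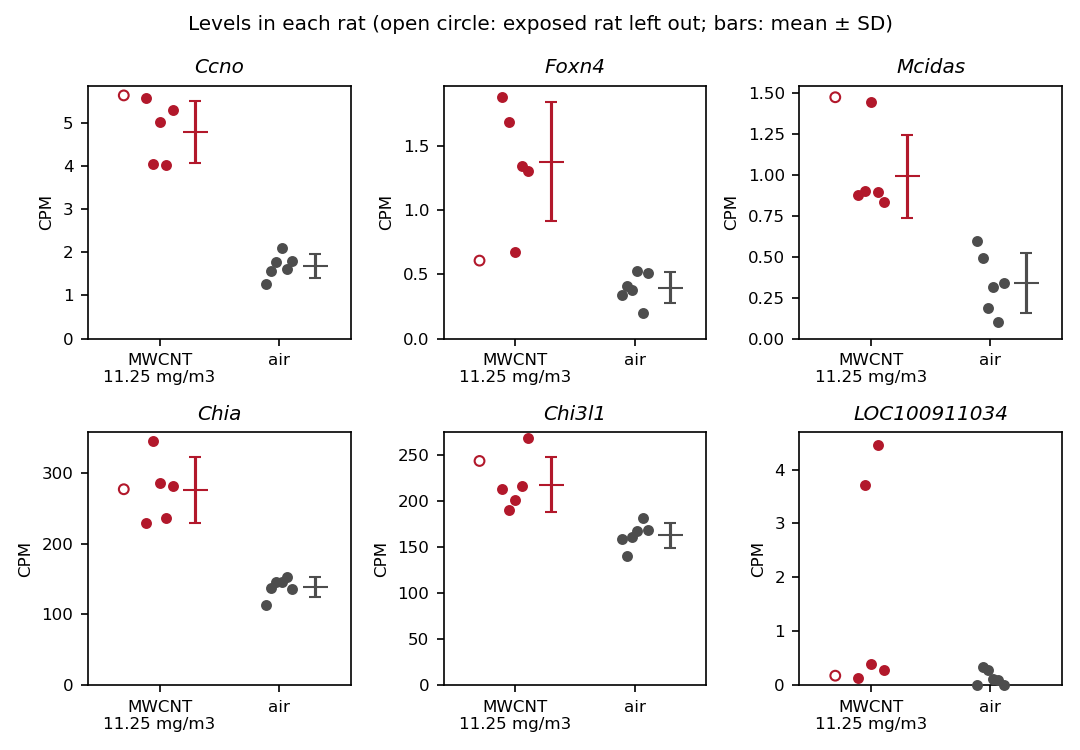
Level in CPM (vertical axis from 0) of 6 genes in each rat of the lowest dose, exposed rats on the left and air rats on the right of each panel. Filled points are the 5 exposed and 6 air rats tested, the open circle is the exposed rat left out, and bars are mean ± SD (none for LOC100911034); for Ccno the exposed rats sit between 4.02 and 5.57 CPM and the air rats between 1.27 and 2.1 CPM.

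Ccno, Foxn4 and Mcidas belong to a list of 11 tested regulators of multiciliated cell formation, drawn up with earlier results of these data known. Ccno and Foxn4 were its only called members, 2 of 11, against 0.0250% of all genes. Of the 11, 8 (72.7%) had a log2 fold change above 0, against 52.8% of all genes, and the median was 0.30 against 0.0065. At 22.5 and at 180 mg/m3, 8 of the 11 were called higher at each dose, against 5.18% and 12.0% of all genes. The medians of the 11 at these doses were 1.30 and 1.68. The deuterosome gene Ccdc67, now named Deup1, which builds the platforms on which new centrioles form, averaged 6.61 ± 0.74 CPM in exposed rats and 4.72 ± 1.29 CPM in air rats (SD, n = 5 and 6), and the groups overlapped. Its log2 fold change of 0.49 (95% interval 0.19 to 0.79) had an adjusted p of 0.70 by edgeR. Plk4, the kinase that starts centriole duplication, gave 0.30 (0.02 to 0.59), and E2f7, a repressor of cell cycle genes, gave 0.33 (-0.19 to 0.85). Gmnc, which acts above Mcidas, gave -0.22 (-0.61 to 0.17) and the ciliary transcription factor Foxj1 gave 0.14 (-0.13 to 0.41).

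The effects of Ccdc67, Plk4 and E2f7 at 11.25 minus those at 22.5 mg/m3 were -1.24, -1.0 and -1.87, and edgeR's test of the difference passed for each (adjusted p 0.00017, 0.0025 and 0.0023). Among 22 structural genes of motile cilia, such as the axonemal filament gene Tekt4 (0.28, 95% interval -0.02 to 0.58), none was called, where 0.0250% of all genes were. At 22.5 mg/m3, 12 of the 22 were called higher, against 5.18% of all genes. None of the 22 passed the test of the difference between the 2 doses, which 0.781% of all genes passed. Their median log2 fold change was 0.08 at 11.25 mg/m3, 0.58 at 22.5 mg/m3 and 0.34 at 180 mg/m3. Summed, the 22 genes made up 899.6 to 1133 CPM in exposed rats and 884 to 1229 CPM in air rats.

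Chia, which digests chitin in the airways, was the second clear difference. It stood at 230, 346, 286, 237 and 282 CPM in exposed rats, against 113.3, 142 and 153 CPM (lowest, median, highest) in air rats. All exposed rats were above all air rats. The means were 276 ± 46.8 CPM in exposed rats and 139 ± 14.0 CPM in air rats (SD, n = 5 and 6), a log2 fold change of 0.99 ± 0.12 (95% interval 0.75 to 1.24) with an adjusted p of 9.1e-07 by edgeR. With at least 1337 reads of Chia in every library, counting noise was small, and the call held with any 1 rat left out (0.89 to 1.04). The rat with the outlier label had 278 CPM. RefSeq annotates the pseudogene Chia-ps1 across the same interval in GRCr8, and how reads shared with it were counted is not given in the sources used here.

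Chia too had larger effects at the higher doses. Its log2 fold change was 1.98 at 22.5, 1.91 at 45, 2.21 at 90 and 2.26 at 180 mg/m3. The effect at 11.25 was smaller by edgeR's test of the difference, by -0.99 against 22.5 (adjusted p 0.00043) and by -1.27 against 180 mg/m3 (adjusted p 8.0e-07). Chi3l1, the related chitin-binding glycoprotein, stood at 213, 190, 201, 217 and 268 CPM in exposed rats, against 140, 164 and 182 CPM (lowest, median, highest) in air rats. Here too no exposed rat was below an air rat, yet the log2 fold change of 0.42 (95% interval 0.20 to 0.64) had an adjusted p of 0.46 by edgeR over all genes.

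Other genes that accompany chitinases in type 2 inflammation did not pass. The true chitinase Chit1 averaged 29 ± 1.1 CPM in exposed rats and 28.2 ± 2.5 CPM in air rats, and arginase 1 (Arg1) averaged 18.7 ± 1.5 CPM in exposed rats and 18.9 ± 4.5 CPM in air rats (SD, n = 5 and 6). The resistin-like gene Retnla gave a log2 fold change of 0.56 (95% interval -0.10 to 1.23), against 3.35 at 180 mg/m3. The receptor genes Il4r and Il13ra1 gave -0.08 and 0.08, with intervals of -0.24 to 0.09 and -0.07 to 0.24.

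LOC100911034, the fourth called gene, had no entry in the RefSeq gene table used here, so its product is not given. It stood at 0.134, 3.71, 0.385, 4.46 and 0.279 CPM in exposed rats, against 0, 0.103 and 0.327 CPM (lowest, median, highest) in air rats. Only exposed replicates 3 and 5 were clearly above the air rats. Exposed replicate 4 lay just above the highest air rat, and exposed replicates 1 and 6 overlapped with the air rats. The fitted log2 fold change was 3.57 ± 0.69 (adjusted p 0.021 by edgeR). Of the 11 fits that left out 1 rat, it was called in 5, tested and not called in 4 (without air replicates 1, 4, 5 or 6, adjusted p up to 0.11), and below the count needed to be tested without exposed replicate 3 or 5. It was not called at 22.5, 45, 90 or 180 mg/m3, where the log2 fold changes were 0.06, -0.18, -0.37 and 1.04.

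**Figure D2:**
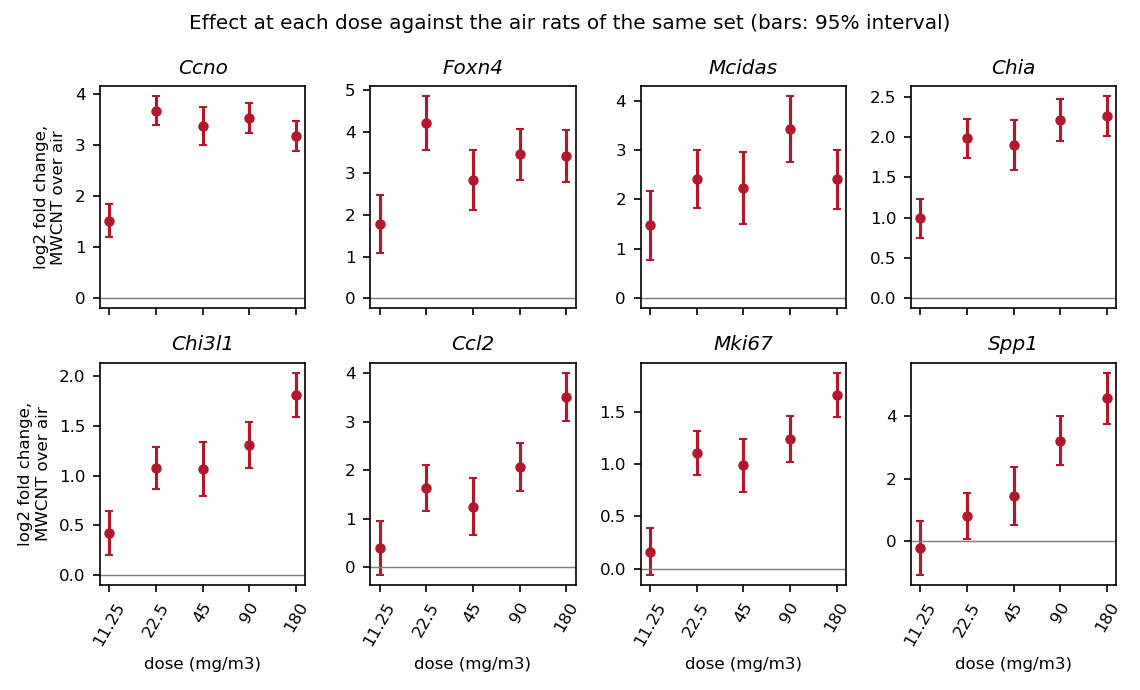
Log2 fold change of MWCNT over the air rats of the same set (vertical axis, scaled per gene) at 11.25, 22.5, 45, 90 and 180 mg/m3 (horizontal axis, 1 step per doubling) for 8 genes, with 95% confidence intervals from the edgeR fit. Ccno, Foxn4 and Chia lie above 0 at the lowest dose and higher at 22.5 mg/m3, while Ccl2, Mki67 and Spp1 have intervals that include 0 at the lowest dose.

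Below the threshold, the next 6 genes by p, Mcidas among them, had adjusted p-values of 0.23 to 0.24 by edgeR. The nucleolar protein gene Rbm28 averaged 34.7 ± 2.3 CPM in exposed rats and 29.6 ± 1.7 CPM in air rats, a log2 fold change of 0.23. The kininogen gene Kng1, a precursor of bradykinin, gave 0.80 ± 0.19 and the mitotic activator Cdc20 gave 0.47 ± 0.11. A pair of these genes had lower levels in exposed rats. Emr4, now Adgre4, an adhesion receptor of macrophages, averaged 7.35 ± 0.92 CPM in exposed rats and 10.9 ± 1.5 CPM in air rats (log2 fold change -0.57), and Cebpe, a transcription factor of late granulocyte maturation, averaged 0.526 ± 0.097 CPM in exposed rats and 1.15 ± 0.33 CPM in air rats (-1.13). Of these, Kng1 and Cdc20 had log2 fold changes of 1.30 to 1.75 and 1.27 to 1.66 across the 4 higher doses, whereas Rbm28 lay between -0.05 and 0.02 there. Emr4 was at -0.19, -0.30, -0.08 and -0.46 across those doses. Cebpe lay on the other side of 0, at 0.14, 0.19, 0.49 and 0.58, and its effect at 11.25 differed from that at 180 mg/m3 (adjusted p 0.00088 by edgeR's test of the difference).

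Genes that responded at every higher dose were then followed down to 11.25 mg/m3. They were chosen by their calls in the other sets, but the shared model took each gene's spread from all sets, this one included. In all, 338 genes were called higher at each of 22.5, 45, 90 and 180 mg/m3, and 58 were called lower at each. At 11.25 mg/m3, 284 of the 338 (84.0%) had a log2 fold change above 0, against 52.8% of all genes tested. Their median was 0.13, where the same genes had medians of 0.81 at 22.5 and 0.97 at 180 mg/m3. Ccno, Chia and Foxn4 were among the 338 and no other gene of that group was called, where 0.0250% of all genes were called. At an unadjusted p under 0.05, 60 of them (17.8%) were higher, against 2.44% of all genes, and 0 were lower. Exposed and air rats did not overlap for 14 of them (4.14%), against 0.444% of all genes. Of the 58 genes lower at the higher doses, 39 (67.2%) were below 0 at 11.25 mg/m3, against 47.2% of all genes tested. Their median was -0.05, and none was called, where 0.0250% of all genes were.

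Averaged over the 338 genes, the log2 level relative to the mean of the air rats was 0.26, 0.16, 0.14, 0.18 and 0.14 in the exposed rats, and in the air rats it ran between -0.22 and 0.15. The exposed rats were thus at the top of the range, but air replicate 4, at 0.15, was level with the lower exposed rats. Over the 58 genes the exposed rats lay between -0.078 and -0.020 and the air rats between -0.015 and 0.042. The groups did not overlap, but exposed replicate 4, at -0.020, came close to air replicate 6, at -0.015. The rat with the outlier label had values of 0.27 over the 338 genes and -0.13 over the 58 genes, farther from the air mean than any other exposed rat. The effect at 11.25 was smaller than at 180 mg/m3 for 226 of the 338 genes and smaller than at 22.5 mg/m3 for 90, by edgeR's test of each difference; since the genes were chosen for large effects at those doses, these 2 counts are descriptions.

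**Figure D3:**
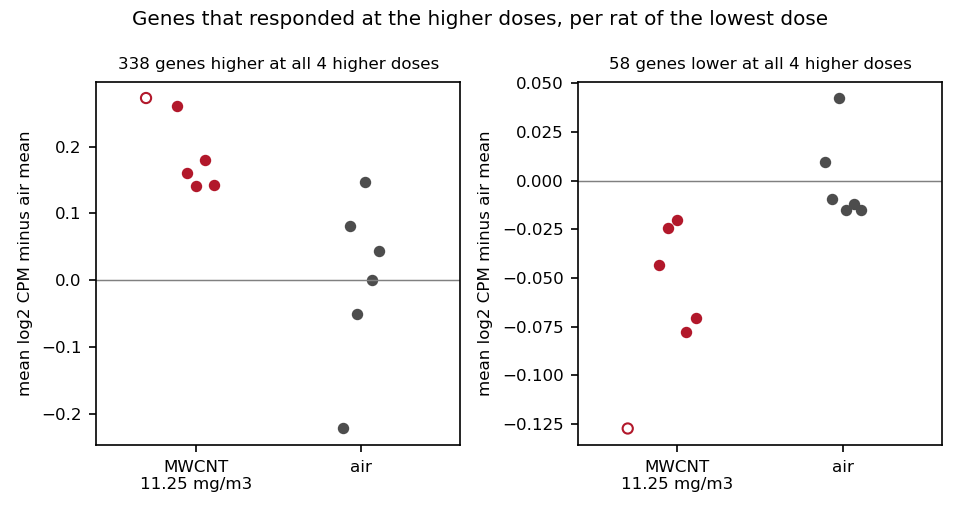
Mean log2 CPM minus the mean of the air rats (vertical axis) in each rat of the lowest dose, over the 338 genes called higher (left) and the 58 called lower (right) at all 4 higher doses. Exposed rats are left of air rats and the open circle is the exposed rat left out; over the 338 genes exposed rats lie between 0.14 and 0.26 and air rats between -0.22 and 0.15.

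Among inflammatory mediators, none of the 31 chemokine genes tested was called at 11.25 mg/m3, where 0.0250% of all genes were. At 180 mg/m3, 19 chemokine genes were called higher and 3 lower, against 12.0% and 10.9% of all genes. Of the 31, 20 (64.5%) were above 0, against 52.8% of all genes tested. Exposed and air rats did not overlap for 2 of them, against 0.444% (higher) and 0.256% (lower) of all genes. The median log2 fold change of the 31 was 0.07, against 0.45 at 22.5 and 0.72 at 180 mg/m3. The monocyte chemoattractant Ccl2 stood at 4.37, 2.92, 4.23, 5.62 and 4.74 CPM in exposed rats, against 1.78, 3.22 and 6.25 CPM (lowest, median, highest) in air rats, so the groups overlapped fully. Its log2 fold change of 0.40 (95% interval -0.16 to 0.96) differed from that at 180 mg/m3 by -3.11 (adjusted p 9.6e-08 by edgeR). The dendritic cell chemokines Ccl22 (0.43, -0.06 to 0.92) and Ccl17 (0.75, 0.05 to 1.44), and the neutrophil attractant Cxcl1 (0.56, 0.10 to 1.02), were above 0 without passing. At 180 mg/m3 those 3 genes had log2 fold changes of 3.65, 2.74 and 1.94. Cx3cl1, the membrane-bound chemokine, was the chemokine with the smallest p (0.25, 0.05 to 0.45), and every exposed rat lay above every air rat.

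Cytokine genes were likewise not called (0 of 13, against 0.0250% of all genes). Il1b was at 0.21 (-0.11 to 0.54), the alarmin Il33 at 0.02 (-0.08 to 0.12) and the macrophage growth factor Csf1 at 0.20 (0.05 to 0.35). Spp1, osteopontin, which had the largest rise at 180 mg/m3 among genes averaging at least 1 CPM there (4.58), averaged 7.16 ± 3.16 CPM in exposed rats and 8.62 ± 5.15 CPM in air rats (SD, n = 5 and 6) at the lowest dose. The macrophage elastase Mmp12 gave -0.39 (-0.94 to 0.16), against 2.49 at 180 mg/m3.

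Acute-phase and innate defence genes included Chia as their only called member, 1 of 23 tested, against 0.0250% of all genes. Of the 23, 19 (82.6%) had a log2 fold change above 0, with a median of 0.18, and 8 were higher at an unadjusted p under 0.05, where 52.8% of all genes were above 0 and 2.44% were higher at that p. Complement C3 stood at 711, 617, 667, 631 and 799 CPM in exposed rats, against 496, 532 and 577 CPM (lowest, median, highest) in air rats. The groups did not overlap, and the log2 fold change was 0.35 (95% interval 0.14 to 0.56, adjusted p 0.70 by edgeR). The haemoglobin-binding protein haptoglobin (Hp) gave 0.38 (0.11 to 0.64), also without overlap, and the iron-sequestering Lcn2 gave 0.69 (0.21 to 1.17), with overlap. Their log2 fold changes at 180 mg/m3 were 1.57, 1.04 and 2.57. Hp and C3 are also made by the liver. Exposed replicates 1 and 3 had the most albumin RNA of the rats compared, and the part of liver RNA in these values was not tested.

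A wider set of 40 genes tied to MWCNT inflammation and to lung cell types was drawn up with earlier results of these data known. Of the 40, 3 were called at 11.25 mg/m3 (Ccno, Foxn4 and Chia), against 0.0250% of all genes tested. At 180 mg/m3, 37 of the 40 were called, against 22.9% of all genes. The effect at 11.25 differed from that at 180 mg/m3 for 35 of the 40, against 9.97% of all genes. Because of how the 40 were chosen, these counts are descriptions. At the lowest dose 28 of the 40 had a log2 fold change above 0, against 52.8% of all genes. The anion exchanger Slc26a4 was at -0.01 (-0.61 to 0.60) against 3.34 at 180 mg/m3, and the serine protease Prss30 was at 0.84 (0.14 to 1.53) against 3.64. Among the genes lower at 180 mg/m3, the serpin Serpinb10 was at -0.08 (-0.31 to 0.15) at the lowest dose against -2.05, Alox15, a lipoxygenase, at -0.19 (-0.43 to 0.04) against -1.93, and the phospholipase Pla2g2d at -0.19 (-0.45 to 0.07) against -1.69. The lipid droplet gene Cidec, also among the 40, was at -0.14 (-0.60 to 0.32) at the lowest dose against -1.92. Outside the 40, the other large falls at 180 mg/m3 were those of the cytochrome P450 Cyp2a3 and of Dlk1, a Notch ligand relative. Cyp2a3 was at -0.67 (-1.85 to 0.51) at the lowest dose against -2.63, and Dlk1 at 0.44 (-0.13 to 1.02) against -1.83. The collagen gene Col1a1 was at -0.15 (-0.33 to 0.02) and at -0.10 at 180 mg/m3.

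**Figure D4:**
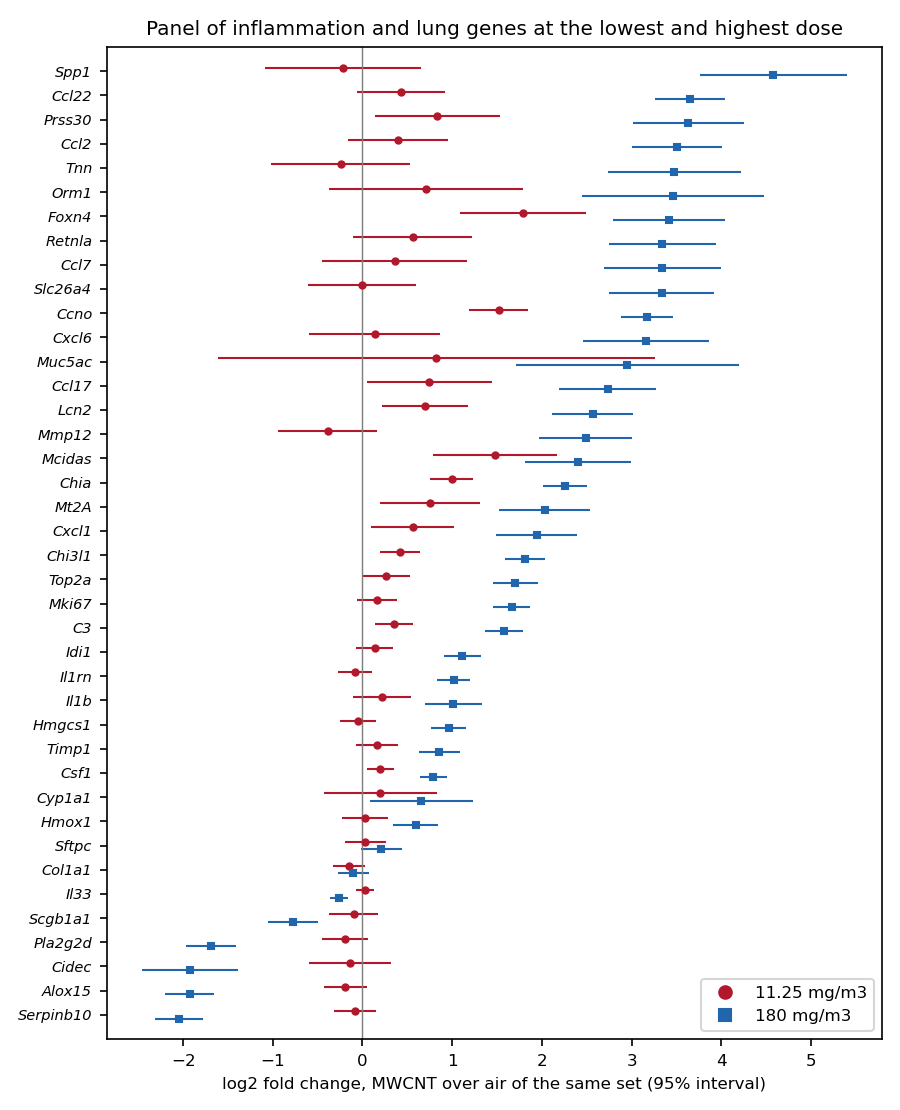
Log2 fold change of MWCNT over air of the same set (horizontal axis) with 95% confidence intervals at 11.25 mg/m3 (circles, upper of each pair) and 180 mg/m3 (squares), for 40 genes ordered by their value at 180 mg/m3. Ccno, Foxn4 and Chia pass the test at the lowest dose, where 28 of the 40 circles lie above 0 and Mcidas, at 1.48, does not pass. Muc5ac was read in 1 exposed and 1 air rat, and its interval is the widest.

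Cell cycle genes, a prominent group at the next dose up, were not called at 11.25 mg/m3 (0 of 46, against 0.0250% of all genes). Of the 46, 43 were called higher at 22.5 and 45 at 180 mg/m3, against 5.18% and 12.0% of all genes. The list's median log2 fold change was 0.10, against 1.05 and 1.36 at those doses. At 11.25 mg/m3, 37 of the 46 were above 0, against 52.8% of all genes. At an unadjusted p under 0.05 by edgeR, 8 of the 46 were higher and 0 lower, against 2.44% and 1.74% of all genes. The proliferation antigen Mki67 stood at 15.4, 14.4, 16.9, 14.8 and 15 CPM in exposed rats, against 11.4, 13.2 and 17.6 CPM (lowest, median, highest) in air rats. These ranges overlapped, and the log2 fold change was 0.16 (95% interval -0.06 to 0.38). For Mki67 the effect minus that at 22.5 mg/m3 was -0.94 (adjusted p 0.00018 by edgeR). In all, 25 of the 46 genes differed in this way from 22.5 mg/m3, against 0.781% of all genes. Cdk1, the mitotic kinase, gave 0.18 (-0.11 to 0.48) and Mcm5, a subunit of the replicative helicase, gave 0.20 (-0.03 to 0.44). The mitotic kinases Melk and Nek2, outside the list, were chosen after their values were seen. Melk gave 0.76 (0.39 to 1.13), with no overlap between groups, and Nek2 gave 0.76 (0.33 to 1.20). Neither passed (adjusted p 0.29 and 0.56 by edgeR).

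Across the whole transcriptome, the effect at 11.25 differed from that at 22.5 mg/m3 for 125 genes (0.781%), 13 of them above 0 (0.0813%) and the rest below 0 (0.700%). It differed from that at 180 mg/m3 for 1595 genes (9.97%), 858 of them below 0 (5.36%) and 737 above 0 (4.61%). The 5 smallest p-values against 22.5 mg/m3 belonged to Ccno, Cdk1, Mcm5, Ybx2 and Stil. Stil, a centriole duplication factor, gave 0.44 (0.09 to 0.80) at the lowest dose and 2.01 at 22.5 mg/m3, and Ybx2, an RNA-binding protein of germ cells, gave 0.33 (-0.05 to 0.71) at the lowest dose and 2.02 at 22.5 mg/m3. The 5 smallest against 180 mg/m3 were Cyp4b1, Sod2, Serpinb10, Nr4a3 and Lilrb4. The mitochondrial superoxide dismutase Sod2 gave 0.18 (0.02 to 0.33) at the lowest dose and 1.40 at 180 mg/m3, and Cyp4b1, a cytochrome P450 abundant in lung, gave -0.09 (-0.19 to 0.02) at the lowest dose and -0.98 at 180 mg/m3.

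Markers of leukocytes showed no called gene, where 0.0250% of all genes were called. The 16 neutrophil markers had a median log2 fold change of 0.11 and summed to 346 to 413 CPM in exposed rats and 337 to 387 CPM in air rats. The 20 alveolar and lung macrophage markers had a median of 0.003, and their member with the smallest p, the receptor Csf1r, was lower without overlap (-0.16, 95% interval -0.26 to -0.06, adjusted p 0.70 by edgeR). T and NK cell markers had a median of -0.12 with 22 of 27 below 0, B and plasma cell markers -0.12 with 15 of 20 below 0, and monocyte and dendritic cell markers -0.07 with 13 of 19 below 0. At 180 mg/m3 the monocyte and dendritic list had a median of 0.66 and the neutrophil list 0.53. Of 37 interferon response genes, 28 were below 0, with a median of -0.06. The interferon-induced gene Wars lay between 133 and 146.4 CPM in exposed rats and reached 270 CPM in 1 air rat, replicate 2.

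Stress and metabolic genes also had no called member, where 0.0250% of all genes were called. Of 25 NRF2 and oxidative stress genes, 24 (96%) were above 0, against 52.8% of all genes, with a median of 0.10, against medians of 0.01 at 22.5 and 0.17 at 180 mg/m3. Their summed level stood apart in exposed replicate 3, at 3329 CPM, and was 2597 to 2756 CPM in the other exposed rats and 2527 to 2704 CPM in air rats. The metallothionein Mt2A was the member with the smallest p (0.75, 95% interval 0.19 to 1.31), and Hmox1, haem oxygenase, was at 0.03 (-0.23 to 0.28). Of 23 cholesterol synthesis genes, 21 were called higher at 180 mg/m3, against 12.0% of all genes. They had a median of 0.01 at the lowest dose, with Hmgcs1 at -0.05 (-0.25 to 0.16) and Idi1 at 0.14 (-0.07 to 0.35). Medians lay within 0.06 of 0 for the lists of ER and heat stress, amino acid stress, lysosome, p53 targets, hypoxia, fatty acid oxidation, immediate early genes, NF-kB feedback and inflammasome genes, and the circadian clock.

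Epithelial and structural cell genes were near their air levels. Alveolar type 2 genes had a median of 0.02, alveolar type 1 genes 0.03, club and goblet genes 0.01, endothelial genes 0.01 and fibroblast and matrix genes -0.02. None was called in any of the 5 lists, where 0.0250% of all genes were. The surfactant gene Sftpc gave 0.03 (-0.19 to 0.26) and the club cell secretory gene Scgb1a1 gave -0.10 (-0.37 to 0.18), against -0.77 at 180 mg/m3. Inmt, a methyltransferase found in lung fibroblasts, was higher without overlap, at 77.4, 98.9, 76.1, 69.1 and 79.9 CPM in exposed rats against 48.7, 56.6 and 65.6 CPM (lowest, median, highest) in air rats, and its log2 fold change of 0.50 had an adjusted p of 0.51 by edgeR. Tenascin C (Tnc), a matrix protein of repair, was lower without overlap, at -0.38 (-0.61 to -0.15, adjusted p 0.70).

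**Figure D5:**
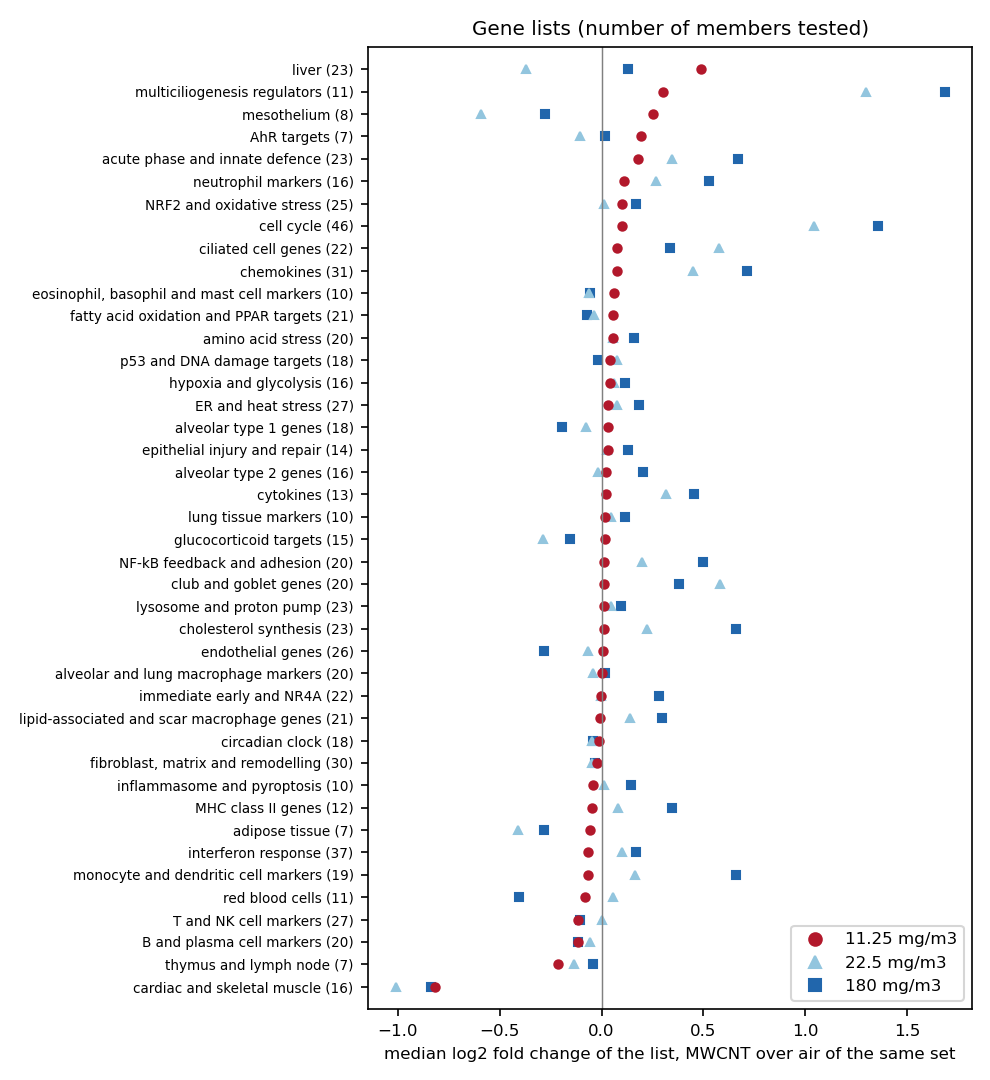
Median log2 fold change of MWCNT over air of the same set (horizontal axis) for each of 42 gene lists, with the number of members tested in brackets, at 11.25 mg/m3 (circles), 22.5 mg/m3 (triangles) and 180 mg/m3 (squares). At the lowest dose the multiciliogenesis regulators have a median of 0.30 and the cell cycle list 0.10, while the muscle list lies at -0.82 and the liver list at 0.49.

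Markers of tissues outside the lung varied between rats. Muscle genes had a median log2 fold change of -0.82, 15 of 16 below 0, and none was called, where 0.0250% of all genes were. Their summed level, however, ran from 34.3 to 251 CPM in exposed rats and from 68.7 to 331 CPM in air rats. The cardiac myosin gene Myh6, at 0.577 to 93.0 CPM in exposed rats and 17.3 to 127 CPM in air rats, shows the same spread. Liver genes had a median of 0.49, 21 of 23 above 0 and none called, and summed to 296 to 502 CPM in exposed rats and 284 to 388 CPM in air rats. Albumin (Alb) stood at 98.9 and 133 CPM in exposed replicates 1 and 3 and at 22.3 to 45.0 CPM in the other 3, against 18.3 to 70.6 CPM in air rats. Without replicates 1 and 3 together, an alternative added after seeing the data, Ccno (1.5) and Chia (0.95) were still called, Foxn4 was not (1.46, adjusted p 0.67), and 2 genes were called in all.

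The rat with the outlier label stood apart in its liver genes. They summed to 3223 CPM there, and Alb alone reached 1434 CPM. Its median correlation with the other rats of the set, on log2 CPM over the genes tested, was 0.979, against 0.985 to 0.988 for the other 11. With this rat added back 3 genes were called, Ccno, Chia and Kng1, of which Kng1 had 8.40 CPM in that rat and 3.29 to 5.36 CPM in the other exposed rats. Kininogen is made chiefly in the liver, and the part of the liver RNA in that call was not tested.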

How the data were processed

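The deposited table holds raw counts of reads per gene symbol for 60 lung libraries, 1 per rat. Per the submitters' processing notes, the tools the authors used to make these counts were HTSeq 0.11.2, SAMtools 1.8, Cufflinks, HISAT2 2.1.0, Trimmomatic 0.35 and bcl2fastq 2.19. Neither the build of the genome nor any use of strand in counting is given in the sources used here. Per the labels' protocols, the libraries were stranded mRNA libraries made from total RNA with 12 PCR cycles, and reads without molecular identifiers are not independent molecules. Genes that overlap or have near-identical copies are uncertain.

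From the counts, the 53 libraries without the submitters' outlier label were fitted in 1 model with 10 groups (5 doses, each with its air rats), with edgeR 4.0.16 in R 4.3.3. Genes passed edgeR's expression filter at a minimum count of 10 (15995 of 30045), library sizes were scaled by TMM, and the robust quasi-likelihood F-test was used, two-sided, with Benjamini-Hochberg adjustment over all genes tested. CPM are counts per 1000000 of these scaled sizes. The exposed rats were set only against air rats of the same set, and effects at 2 doses were compared by a contrast of contrasts. SE were taken from the F statistic. The per-rat means over many genes used log2 CPM with a prior count of 2. Alternatives used DESeq2 1.42.0 and limma 3.58.1. The test was tested on simulated data. The sources used here do not tie a cage or litter to a rat, and rats that shared a cage are not independent. No pair of libraries within a group differed by as little as sampling noise (smallest chi-square per degree of freedom 2.69), so none was merged.

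Genes named in the text were drawn from the called genes, the 10 smallest p-values, the 10 largest rises and 5 largest falls at 180 mg/m3, a panel of 40 genes, the best member of each of 42 gene lists, and the 5 smallest p-values of each difference of effect; others are said to be chosen after their values were seen or are markers of other tissues. The rats compared, the panel and the lists were chosen with earlier results of these data known. Symbols that carry no gene name were counted and passed over, except that LOC100911034 is named as 1 of the 4 called genes. Regulators of multiciliated cells and genes related to Chia were named as families of the called genes, and Hp, Tnc, Melk, Nek2, Dmrtc2 and Calcrl after their values were seen. Of the 30045 symbols, 27 had been turned into dates in the deposited table, and 21456 matched a symbol or synonym in the RefSeq gene table for GRCr8, which gave names and promoters and no coordinates of counted features. Of the promoter motifs searched, 1 without a match is not reported here.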

Additional observations from a re-analysis of the deposited data

Results flagged for a closer look

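The effect at 11.25 mg/m3 differed from that at another dose, by edgeR's test of the difference, for the following named genes. Against 22.5 mg/m3 the differences on the log2 scale were -2.15 for Ccno, -2.42 for Foxn4, -0.99 for Chia, -1.43 for Cdk1, -1.10 for Mcm5, -1.69 for Ybx2 and -1.57 for Stil. Against 180 mg/m3 they were -1.65 for Ccno, -1.63 for Foxn4, -1.27 for Chia, -2.35 for Nr4a3, -1.22 for Sod2, -1.17 for Lilrb4, 1.96 for Serpinb10 and 0.89 for Cyp4b1. The first 3 genes were called at 11.25 mg/m3 and the others were not.

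In 11 of 92 groups of rats looked at, 1 rat stood apart from the rest of its group. For normally distributed values chance gives about 1 in 20, and whether that share holds for these CPM was not tested. Among exposed rats these were Alox15 at 40.6 CPM in replicate 3, Lcn2 at 29.3 CPM in replicate 6, Mcidas at 1.44 CPM in replicate 4 and Muc5ac at 0.134 CPM in replicate 1, each the highest of its group. Among air rats the highest value stood apart for Ccl22 at 1.02 CPM in replicate 6, Csf1 at 54.8 CPM in replicate 2, Cyp1a1 at 3.73 CPM and Muc5ac at 0.0847 CPM in replicate 1, and Hmox1 at 55.0 CPM and Pla2g2d at 217.8 CPM in replicate 5. The lowest stood apart for Orm1 at 0 CPM in air replicate 4. Some of these values rest on very few reads: Muc5ac had 0 to 2 in an exposed library and 0 to 1 in an air library, and Orm1 had 0 to 6 in an air library.

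The exposed rat with the outlier label entered no test. Of the called genes and the 10 with the smallest p, its level was above that of the highest air rat at 5.63 CPM for Ccno, 278 CPM for Chia, 0.606 CPM for Foxn4, 1.47 CPM for Mcidas, 6.67 CPM for Cdc20, 8.40 CPM for Kng1 and 32.4 CPM for Rbm28, and its liver genes summed to 3223 CPM.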

How the results depend on the processing

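The 4 genes called at 11.25 mg/m3 became 0 with all 60 libraries (139 genes at an unadjusted p under 0.05), 2 without exposed replicates 1 and 3 together, an alternative added after seeing the data, and 263 with air rats of all 5 sets as the control, of which 3 are among the 4. Leaving out 1 rat at a time gave 2 to 5 genes. With only the rats of this set in the model, 3 genes were called: Ccno, Chia and Hp (adjusted p 0.041 for Hp by edgeR). Foxn4 and LOC100911034 were not among these 3. Ccno and Chia were called in every fit run except that with all 60 libraries (adjusted p 1.0 for both). Foxn4 and LOC100911034 also lost their calls with the rat with the outlier label added back (adjusted p 0.060 for both) and with voom (0.10 and 0.27). The 125 genes whose effect differed from that at 22.5 mg/m3 became 0 with all 60 libraries (355 at an unadjusted p under 0.05), 49 with only the sets compared, 212 with voom and 202 at an adjusted p under 0.10. The 1595 genes whose effect differed from that at 180 mg/m3 became 138 with all 60 libraries and 2506 with voom. The cause of these changes was not tested. No named gene changed direction while called. Of the values of single named genes, 2493 stayed on their side of the threshold, 20 passed it and 19 lost it. No paired analysis was possible because the labels number each rat separately and the exposed and air rats share no number. Foxn4 and Mcidas had fewer than 30 reads in each library, and the part of depth in their results was not tested.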

Other observations

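Several gene lists outside the comparisons above had no called member, where 0.0250% of all genes were called, and most had medians near 0. Mesothelial genes had a median log2 fold change of 0.25 with 7 of 8 above 0, against -0.59 at 22.5 and -0.28 at 180 mg/m3. Mesothelin (Msln), a surface protein of the pleural lining, ran from 47.4 to 121 CPM in exposed rats and from 33.6 to 91.6 CPM in air rats. Genes of thymus and lymph node, which mark attached lymphoid tissue, had a median of -0.21 with 7 of 7 below 0. Their summed level was 142 to 185 CPM in exposed rats and 165 to 202 CPM in air rats. Red blood cell genes had a median of -0.08, adipose genes -0.05, MHC class II genes -0.05, eosinophil, basophil and mast cell markers 0.06, lipid-associated macrophage genes -0.007, glucocorticoid targets 0.02, epithelial repair genes 0.03 and targets of the aryl hydrocarbon receptor 0.20.

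The clock repressor gene Nr1d1, which swings widely over the day, ran from 65 to 167 CPM in exposed rats and from 19.4 to 107 CPM in air rats. Its log2 fold change was 0.87 (95% interval -0.07 to 1.81), and the time of day at which each lung was taken is not stated in the sources used here. Dmrtc2, chosen after its values were seen, stood at 0.336, 4.05, 1.92, 1.25 and 2.69 CPM in exposed rats, against 0, 0.0468 and 0.504 CPM (lowest, median, highest) in air rats. It had an adjusted p of 0.46 by edgeR, and 0 CPM in the rat with the outlier label.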
